A study of Homo sapiens with 6 samples.

Results

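The Hippo pathway, the angiomotins and the targets of YAP were described here as 31 genes out of the 28278 gene symbols counted in the HCT116 libraries. They are 3 angiomotins, the coactivators YAP1 and WWTR1, 4 TEAD factors with their partner VGLL4, the core kinases and their adaptors, upstream regulators, 3 proteins that bind LATS or YAP, and 3 target genes. The genes were chosen by name, with results of this same contrast in view, so the calls given for them describe the libraries and support nothing. Both groups were HCT116, an established human colon carcinoma line, infected with lentivirus and selected with puromycin at 5 µg/ml from 36 h after infection for 2 to 3 weeks, and both are labelled day 21. The 3 shControl libraries carried a scrambled shRNA and are labelled WT, although these cells went through the same infection and drug selection. The 3 shTRIM21 libraries carried an shRNA against TRIM21, a ubiquitin ligase that binds antibodies in the cytosol. The labels name a single shRNA for each group. They call the replicates biological and do not say whether they were separate infections or cultures, so the tests measure the spread between these libraries, whatever its source.

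In the Hippo pathway the kinases STK3 and STK4, with the scaffold SAV1, phosphorylate LATS1 and LATS2, which act with MOB1A or MOB1B. LATS kinases phosphorylate YAP1 and WWTR1 (the protein TAZ), which then bind 14-3-3 proteins and stay in the cytoplasm. Unphosphorylated YAP and TAZ enter the nucleus, bind the TEAD factors and switch on genes such as CCN1 and CCN2. Angiomotins are junction and actin scaffolds that bind YAP and TAZ directly and also bring LATS and NF2 into contact. In colon epithelium the pathway is known for its part in crypt regeneration. Most of this regulation acts on the proteins through phosphorylation and location, and RNA counts measure neither.

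The libraries held 22656160 to 27123657 counts. TRIM21 was at 11.8, 11.7 and 15.8 CPM (counts relative to the scaled library size) in shControl and at 8.83, 8.18 and 6.68 CPM in shTRIM21, a fall of 39.7% with no overlap between the groups. Its log2 fold change was -0.73 (SE 0.17), with an edgeR adjusted p of 0.0124. Without shTRIM21 replicate 3 the adjusted p was 0.0734, and without replicate 3 of both groups it was 0.114. On the second principal component replicate 3 scored lowest in each group. In shControl it stood apart, at -31.8 against 12.2 and 5.87 for replicates 1 and 2. In shTRIM21 all replicates were spread widely, at 22.9, 5.49 and -14.7 for replicates 1 to 3. Replicate 3 also had the lowest share of ribosomal RNA in each group. Of 8 markers of colon epithelium 6 passed the filter on low counts, EPCAM, KRT8, KRT18, CDH1, CDX2 and VIL1, and KRT20 and CDX1 did not. KRT18, the most abundant, was at 78.7 ± 2.48 CPM (SD, n = 3) in shControl and 70.4 ± 1.53 (SD, n = 3) in shTRIM21. None of the 6 differed past the threshold. Fold changes were negative for 5, beside 48.2% of all tested genes, and the list median was -0.18 on the log2 scale. The levels of 4 lay lower in shTRIM21 without overlap, beside 13.9% of all tested genes. The part of this in the results below was not tested. None of the fibroblast, leukocyte and endothelial markers passed the filter on low counts, with at most 10 counts in any library. COL1A2, COL3A1, DCN and LUM were at 0.

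Of the 31 genes, 30 passed the filter on low counts, and ANKRD1 did not. At an adjusted p under 0.05 over all 14002 genes tested, AMOTL1 was higher in shTRIM21, LATS1 and FRMD6 were lower, and 27 did not pass. The background is wide: 9.08% of all tested genes passed in either direction, 4.43% as higher and 4.66% as lower, so 3 of 30 is near it. Fold changes were negative for 16 of the 30 genes, beside 48.2% of all tested genes, and their median log2 fold change was -0.03 beside 0.01. The number passing was 5 with DESeq2, 5 with the replicate number as a block and 8 without shControl replicate 3. The share of all genes that passed rose in these settings too, to 12.1%, 12.1% and 12.2%. In the last of them NF2, FAT1, TAOK1 and PTPN14 also passed as lower and MOB1A as higher. These are bulk libraries, so fewer cells with a transcript and less of it per cell cannot be told apart.

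**Figure D1:**
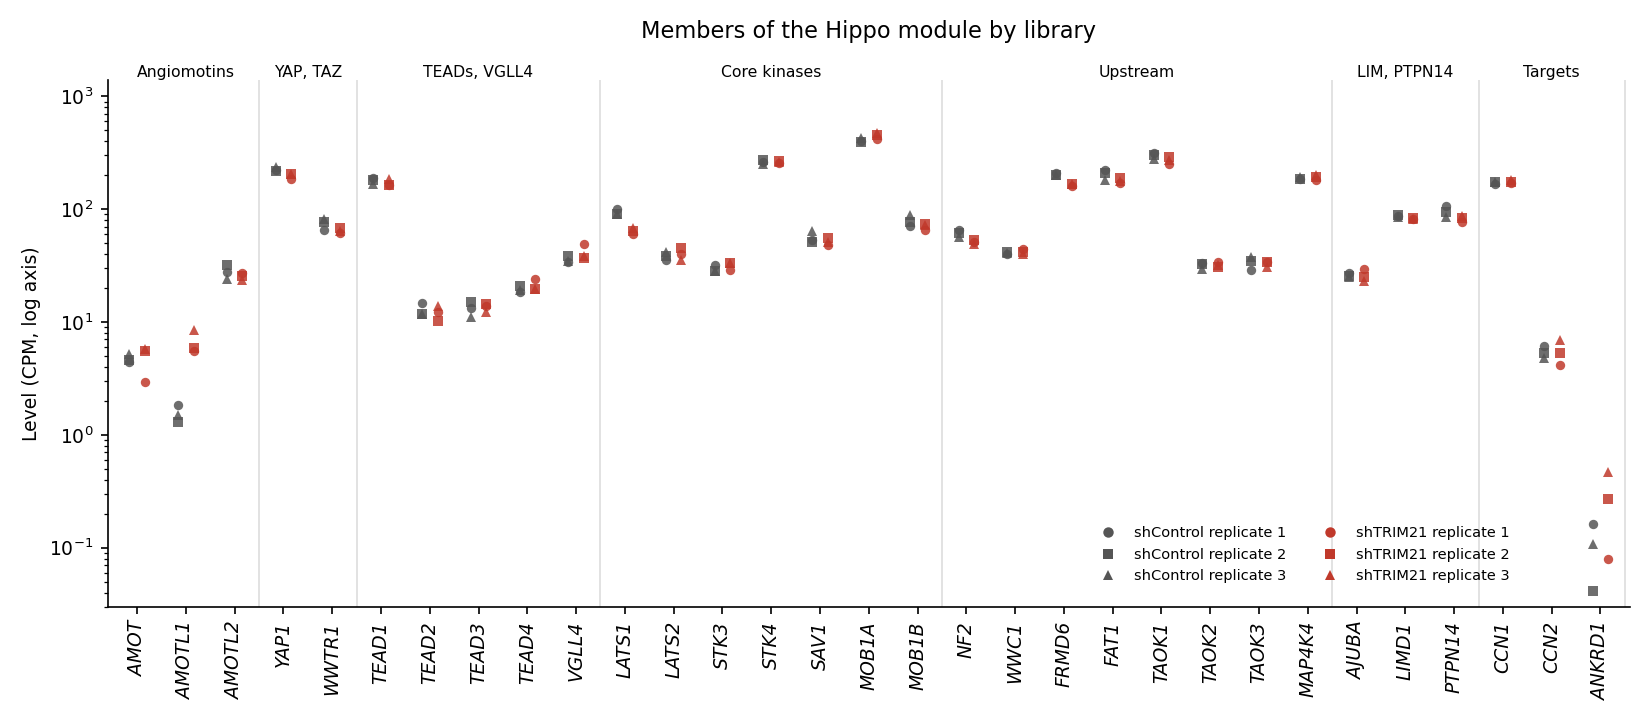
Level of each of the 31 genes in each library, in TMM-scaled CPM on a log axis, in order of their role; marker shape gives the replicate number and colour the group. AMOTL1 is the only gene whose shTRIM21 libraries all lie above its shControl libraries, while LATS1, FRMD6, YAP1, NF2 and LIMD1 lie below them.

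An earlier scan of these same fold changes had picked AGTGGAA as the sequence of 7 bases (7-mer) in the 3′ UTR most tied to lower genes and GTGTCAC as one tied to higher genes. They were looked up here on the transcript strand of the longest annotated 3′ UTR of each gene (GENCODE 29, GRCh38). AMOTL1 holds 1 GTGTCAC, LATS1 holds 2 AGTGGAA and FRMD6 holds 1. YAP1, which did not pass, also holds 2 AGTGGAA. The windows are shown because these are the 3 genes that passed and the coactivator the pathway acts on. Capitals mark the 7-mer.
AMOTL1, chr11:94871238-94871262 (+): cataatgcaGTGTCACctgtgccaa
LATS1 upstream site, chr6:149658642-149658666 (-): aaaactgtgAGTGGAAttgttttat
LATS1 downstream site, chr6:149658507-149658531 (-): ggtatttaaAGTGGAAcatttagcc
FRMD6, chr14:51729670-51729694 (+): gtagggtacAGTGGAAcataagcag
YAP1 upstream site, chr11:102230358-102230382 (+): cctttgtccAGTGGAAaaacatgat
YAP1 downstream site, chr11:102230898-102230922 (+): tagtgtggtAGTGGAAtgtatcctt
The AMOTL1 7-mer begins at base 452 of a 3′ UTR of 5958 bases, close to the stop codon. Both LATS1 copies lie near the end of its 3′ UTR of 3576 bases, at bases 3072 and 3207.

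The angiomotins did not move together. AMOTL1 (chromosome 11, 94706431 to 94876753, plus strand) stood at 1.84, 1.31 and 1.5 CPM in shControl replicates 1 to 3 and at 5.53, 5.93 and 8.42 CPM in shTRIM21. The groups were far apart, and the lowest shTRIM21 library was 3.01 times the highest shControl library. Behind this lay 45, 32 and 42 reads counted in the shControl libraries against 141, 132 and 218 in those of shTRIM21, so the gene rose from a low level. Its fitted change was 4.28-fold, a log2 fold change of 2.1 (SE 0.27). By log2 fold change it was number 12 among the genes called higher. Its rise is part of why the gene was chosen, so this rank is a description.

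AMOT, the founding member on the X chromosome, was at 4.38, 4.58 and 5.16 CPM in shControl and at 2.94, 5.57 and 5.76 CPM in shTRIM21. Replicate 1 of shTRIM21 was the lowest library and the other 2 the highest, so the groups overlapped, with a log2 fold change of 0.01 (SE 0.26). AMOTL2, which is also a YAP target, was at 27.7, 31.9 and 24.2 CPM in shControl and at 27.4, 25.7 and 23.4 CPM in shTRIM21. These ranges overlapped too, and its log2 fold change was -0.13 (SE 0.12).

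To compare the paralogs with each other, CPM was divided by the length of the joined exons. On this scale the 3 angiomotins summed to 5.38 ± 0.601 CPM per kb (SD, n = 3) in shControl and 5.48 ± 0.0592 (SD, n = 3) in shTRIM21. AMOTL1 made up 3.44, 2.17 and 3.10% of that sum in shControl and 10.1, 10.7 and 15.5% in shTRIM21. AMOTL2 was the main angiomotin in both groups, at 86.7% ± 2.31 (SD, n = 3) and 77.7% ± 5.80 (SD, n = 3). AMOTL1 was thus the least abundant of the family in shControl and level with AMOT in shTRIM21, where AMOT took 10.2%. With the length of the longest coding transcript instead, chosen after seeing the data, the AMOTL1 share went from 2.50 to 10.5%.

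**Figure D2:**
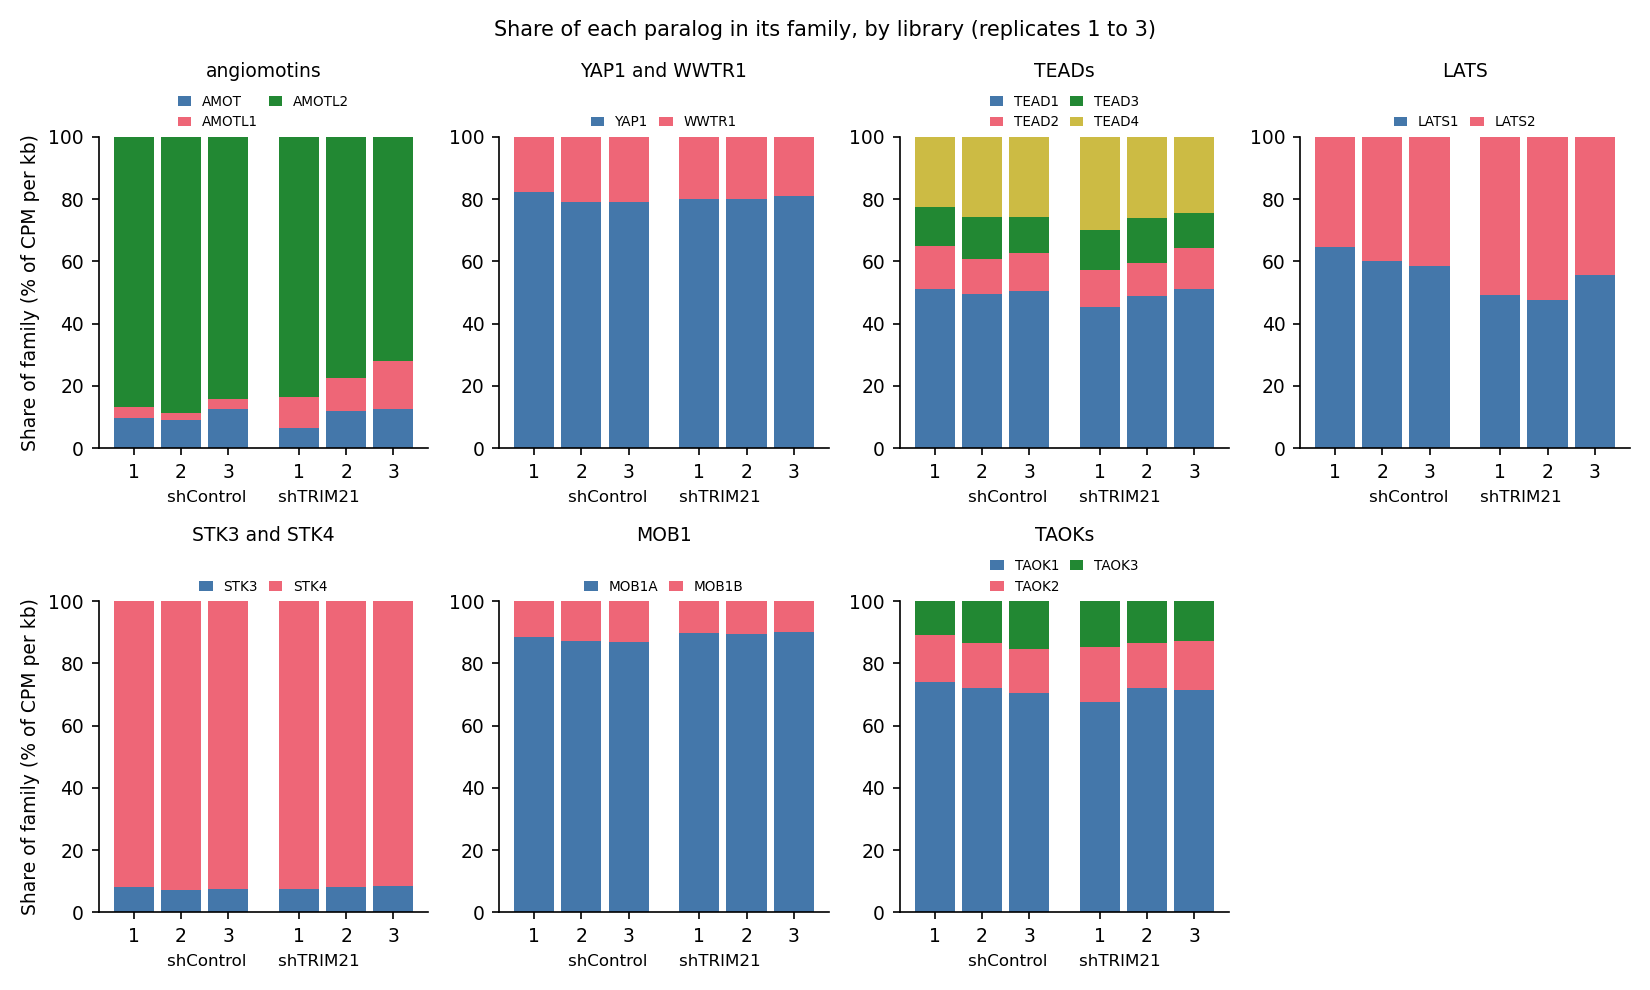
Share of each paralog in the summed CPM per kb of exon of its family, one stacked bar per library, replicates 1 to 3 of shControl and then of shTRIM21. The AMOTL1 segment runs from 2.17 to 3.44% in shControl and from 10.1 to 15.5% in shTRIM21, and the LATS1 segment from 58.5 to 64.7% and from 47.7 to 55.5%.

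LATS1 and LATS2 are the kinases that phosphorylate YAP and TAZ, and only the first of them passed the threshold. LATS1 (chromosome 6, 149658153 to 149718256, minus strand) was at 99.9, 89.8 and 90.5 CPM in shControl and at 60.0, 64.7 and 68.0 CPM in shTRIM21. All 3 shTRIM21 libraries were below all 3 shControl libraries. It fell by 31.2%, a log2 fold change of -0.54 (SE 0.08), with an edgeR adjusted p of 0.000163. The counts ran from 1440 to 2542, so counting error was small beside the spread between libraries.

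LATS2, itself induced by YAP, was at 35.2, 38.7 and 41.4 CPM in shControl and at 40.1, 45.7 and 35.1 CPM in shTRIM21. The groups overlapped, and the log2 fold change was 0.07 (SE 0.10). Whether the changes of LATS1 and LATS2 differ was not tested. Per kb of exon, LATS1 made up 64.7, 60.0 and 58.5% of the LATS total in shControl and 49.1, 47.7 and 55.5% in shTRIM21, with no overlap. The LATS total was 17.7 ± 0.316 CPM per kb (SD, n = 3) in shControl and 14.7 ± 0.885 (SD, n = 3) in shTRIM21.

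None of the other core genes passed the threshold. STK4 (MST1) was at 264, 273 and 252 CPM in shControl and at 259, 269 and 261 CPM in shTRIM21, a log2 fold change of 0.00 (SE 0.06). STK3 (MST2), at 29.6 ± 1.87 CPM (SD, n = 3) and 32.0 ± 2.47 (SD, n = 3), is the minor of the pair, and STK4 took 92.5% of their summed CPM per kb in shControl. That share was 81.3%, and that of STK3 18.7% in place of 7.52%, with the length of the longest coding transcript, since the joined exons of STK3 are far longer than its transcript. The scaffold SAV1 had a log2 fold change of -0.12 (SE 0.10). Its exons share 14.9% of their bases with ATL1 on the opposite strand, and no source used here says whether the counting was stranded.

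The LATS cofactors MOB1A and MOB1B lay on opposite sides of 0. MOB1A was at 405, 390 and 432 CPM in shControl and at 417, 451 and 479 CPM in shTRIM21, with a log2 fold change of 0.13 (SE 0.07). MOB1B was at 71.3, 77.6 and 88.5 CPM in shControl and at 65.4, 73.5 and 72.9 CPM in shTRIM21, with a log2 fold change of -0.16 (SE 0.09). Both overlapped between groups. MOB1A made up 87.6% ± 0.867 (SD, n = 3) of the pair per kb in shControl and 89.7% ± 0.312 (SD, n = 3) in shTRIM21.

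Among the upstream regulators FRMD6 passed the threshold and NF2 came nearest to it of the rest. FRMD6 is a FERM-domain protein at the cell border, related to the fly protein Expanded. FRMD6 (chromosome 14, 51489100 to 51730727, plus strand) was at 211, 201 and 202 CPM in shControl and at 161, 169 and 168 CPM in shTRIM21. The groups were narrow and did not overlap. It fell by 18.9%, a log2 fold change of -0.30 (SE 0.06), with an edgeR adjusted p of 0.00426.

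NF2 encodes merlin, a FERM-domain tumour suppressor that recruits LATS to the membrane. It was at 65.2, 61.0 and 57.0 CPM in shControl and at 51.1, 53.1 and 49.6 CPM in shTRIM21. The groups did not overlap, and NF2 differed by -0.25 (SE 0.08) on the log2 scale at an edgeR adjusted p of 0.0601. WWC1 (KIBRA), which binds merlin, was at 40.0, 41.6 and 40.9 CPM in shControl and at 44.8, 41.5 and 40.4 CPM in shTRIM21, with a log2 fold change of 0.05 (SE 0.09).

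FAT1, an atypical cadherin, was at 221, 208 and 182 CPM in shControl and at 172, 189 and 179 CPM in shTRIM21, a log2 fold change of -0.17 (SE 0.07). Its shControl replicate 3 lay inside the shTRIM21 range. Without that library its edgeR adjusted p was 0.00782, but with another library left out it reached 0.498. FAT1 passed in 2 of 14 alternatives. TAOK1, a kinase that activates STK3 and STK4, was at 313, 304 and 278 CPM in shControl and at 249, 288 and 270 CPM in shTRIM21. These ranges overlapped, again through replicate 3 of shControl, and the edgeR adjusted p went from 0.200 to 0.0334 without it. With another library left out it reached 0.502, and TAOK1 passed in 1 of 14 alternatives. TAOK2, TAOK3 and MAP4K4, a kinase that acts on LATS beside the STK pair, had log2 fold changes of 0.01 (SE 0.10), -0.05 (SE 0.11) and 0.03 (SE 0.06).

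The LIM proteins AJUBA and LIMD1 bind LATS and hold back its activity. LIMD1 was at 87.0, 88.5 and 86.1 CPM in shControl and at 81.5, 82.9 and 81.9 CPM in shTRIM21. The groups did not overlap, yet the step was small beside the spread the fit allows, at a log2 fold change of -0.09 (SE 0.07) and an edgeR adjusted p of 0.486. Its exons share 8.12% of their bases with the antisense gene LIMD1-AS1. AJUBA was at 25.8 ± 1.16 CPM (SD, n = 3) and 25.8 ± 3.23 (SD, n = 3). PTPN14, a phosphatase that binds YAP and is also its target, was at 106, 94.4 and 86.1 CPM in shControl and at 77.5, 83.3 and 86.2 CPM in shTRIM21. Only replicate 3 of the 2 groups met, and its edgeR adjusted p was 0.110 with all libraries and 0.0141 without shControl replicate 3. With another library left out it reached 0.457, and PTPN14 passed in 2 of 14 alternatives.

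YAP1 and WWTR1 both had lower means in shTRIM21, and neither passed. YAP1 was at 225, 217 and 234 CPM in shControl and at 184, 204 and 204 CPM in shTRIM21. The groups did not overlap, and YAP1 differed by -0.19 (SE 0.06) on the log2 scale at an edgeR adjusted p of 0.0729. WWTR1 was at 65.1, 77.2 and 82.2 CPM in shControl and at 61.3, 67.8 and 63.6 CPM in shTRIM21, with overlap, a log2 fold change of -0.22 (SE 0.09) and an adjusted p of 0.126. Without shControl replicate 1, its lowest shControl library, WWTR1 passed at -0.31 and an edgeR adjusted p of 0.0480. With another library left out the adjusted p reached 0.308, and WWTR1 passed in 1 of 14 alternatives. YAP1 made up much the same share of the pair per kb, 80.1% ± 1.79 (SD, n = 3) in shControl and 80.4% ± 0.566 (SD, n = 3) in shTRIM21, while their sum went from 44.7 ± 2.01 to 39.0 ± 2.15 CPM per kb (SD, n = 3 each). Exons of YAP1 share 9.97% of their bases with the antisense gene AP000942.2, and those of WWTR1 9.45% with WWTR1-AS1. Antisense genes also cover 8.34% of the exon bases of CCN2, 4.94% of AMOTL1 and 4.72% of LATS1.

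The TEAD factors are the DNA-binding partners of YAP and TAZ, and none of the 4 passed. TEAD1, the most abundant, was at 188, 183 and 169 CPM in shControl and at 165, 165 and 185 CPM in shTRIM21, with overlap and a log2 fold change of -0.06 (SE 0.07). TEAD4 was at 18.3, 20.8 and 19.0 CPM in shControl and at 24.0, 19.5 and 19.5 CPM in shTRIM21, a log2 fold change of 0.12 (SE 0.12). For TEAD2 and TEAD3 the values were -0.07 (SE 0.16) and 0.03 (SE 0.15). Exons of TEAD2 share 10.7% of their bases with CD37 on the opposite strand. VGLL4 competes with YAP for TEAD and had the most positive fold change of the genes that did not pass. It was at 34.3, 38.1 and 35 CPM in shControl and at 48.8, 37.2 and 38.1 CPM in shTRIM21, with a log2 fold change of 0.21 (SE 0.11). Replicate 1 of shTRIM21 stood well above the other 5 libraries, which lay close together. Exons of VGLL4 share 22.1% of their bases with ATG7 on the opposite strand.

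**Figure D3:**
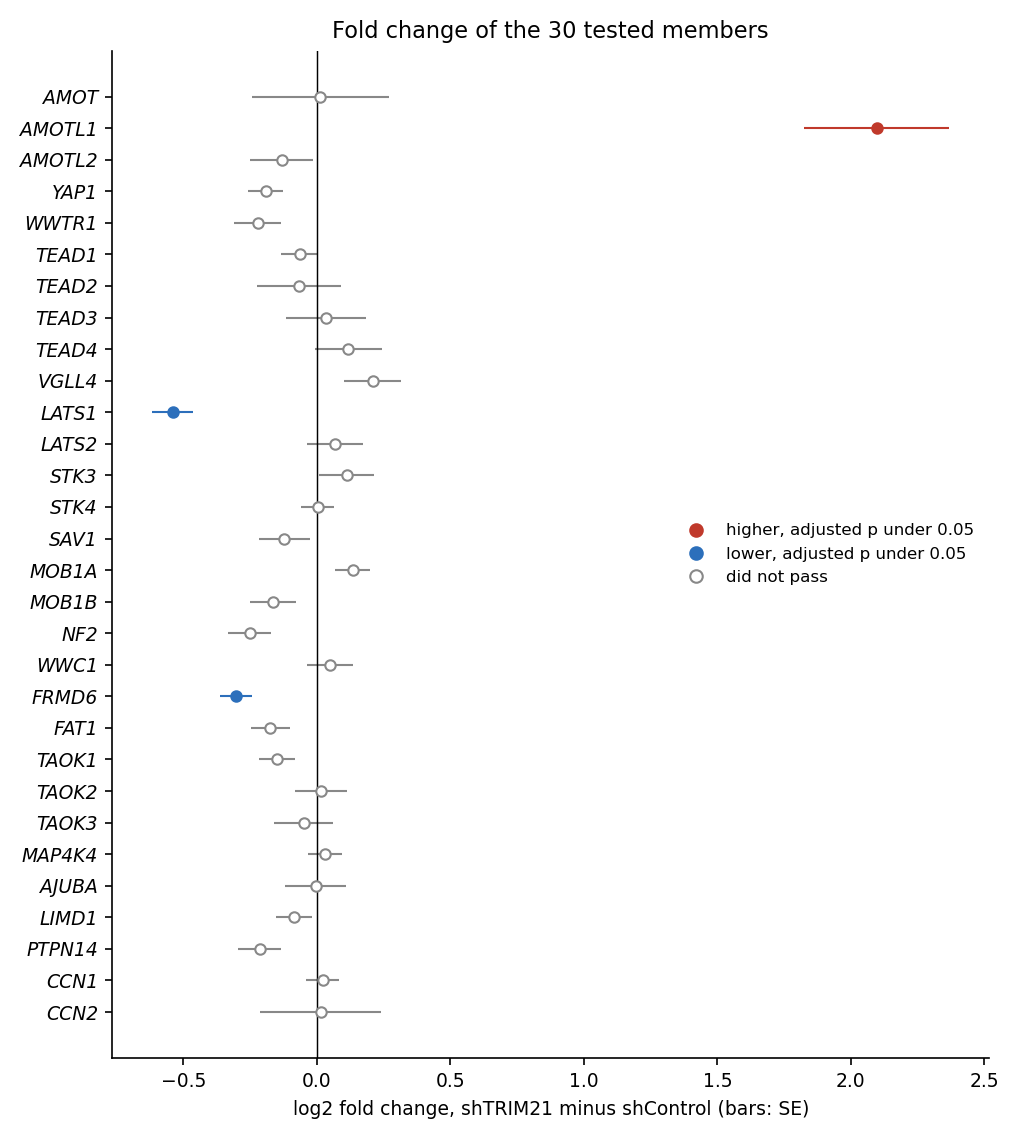
Log2 fold change of the 30 tested genes, shTRIM21 minus shControl, with bars of 1 SE from the edgeR quasi-likelihood fit; filled points passed an adjusted p of 0.05. AMOTL1 lies at 2.1, LATS1 at -0.54 and FRMD6 at -0.30, and the other 27 lie between -0.25 and 0.21.

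The classical YAP and TEAD targets showed no change past the threshold. CCN1 (CYR61), a secreted matrix protein, was at 167, 176 and 173 CPM in shControl and at 171, 173 and 181 CPM in shTRIM21. The groups overlapped, and its log2 fold change was 0.02 with a small SE of 0.06. CCN2 (CTGF), its close relative, was at 6.18, 5.31 and 4.84 CPM in shControl and at 4.16, 5.35 and 6.95 CPM in shTRIM21. The shTRIM21 libraries spanned the whole shControl range, and the log2 fold change was 0.01 (SE 0.23). ANKRD1, a cofactor of muscle transcription and a common YAP reporter, had 4, 1 and 3 counts in shControl and 2, 6 and 12 in shTRIM21, too few for a test.

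AMOTL2, LATS2 and PTPN14 are induced by YAP as well and lay between -0.21 and 0.07 on the log2 scale, as given above. Levels of the targets differed widely: CCN1 stood at 70.1 CPM per kb of exon in shControl, CCN2 at 2.33 and ANKRD1 at 0.0524. Per kb CCN1 was above YAP1 itself, at 35.8.

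TEAD factors bind a motif whose letters are GGAATGT. It was searched on both strands in the RefSeq promoters (GRCh38.p14), the 250 bases before a gene start and the 50 after it, of the 26 members that matched. TEAD1, TEAD4, STK3, LIMD1 and CCN1 had no entry. These 26 genes have 41 promoters in the table, and 3 of the 41, or 7.32%, held the motif, beside 3.46% of 35116 promoters. Counted by gene, it was in 3 of 26, or 11.5%, beside 4.25% of 27305 genes. The 3 windows below show where it sits in a classical target, a feedback angiomotin and the coactivator, with the motif or its reverse complement in capitals.
CCN2, chr6:131951451-131951477 (-): aggaatgcgaGGAATGTccctgtttgt
AMOTL2, chr3:134374501-134374527 (-): tgaaactctcACATTCCtggcatagca
YAP1, chr11:102110275-102110301 (+): ggagtgtgcaGGAATGTagcaacttgc
They begin 95, 70 and 162 bases before the start. None of these 3 genes passed the threshold, and none of AMOTL1, LATS1 and FRMD6 held the motif in this window. The first 4 letters of GGAATGT also end AGTGGAA, so the downstream YAP1 site above holds both.

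Groups that do not overlap were common in these libraries: 28.1% of all tested genes had none, 14.1% with every shTRIM21 library higher and 13.9% with every one lower. Among the 30 genes AMOTL1 was alone on the higher side, and LATS1, FRMD6, YAP1, NF2 and LIMD1 were on the lower side. At 1 and 5 of 30, the Hippo genes are thus under the background on the higher side and near it on the lower side.

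Across the 30 genes AGTGGAA was in the 3′ UTR of 9, or 30.0%, beside 16.1% of the 11991 tested genes with an annotated 3′ UTR. The holders were YAP1, LATS1, SAV1, MOB1B, FRMD6, TAOK1, MAP4K4, PTPN14 and CCN2. Their median log2 fold change was -0.16, with 7 of 9 negative, and that of the 21 others was 0.01, with 9 negative. The holders also had longer 3′ UTRs, with a median of 3483 bases against 2269. Over all genes AGTGGAA was in 41.3% of the 610 lower genes, 13.2% of the 559 higher genes and 14.9% of those that did not pass.

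GTGTCAC was in 5 of the 30, or 16.7%, beside 9.83% of all. AMOT, AMOTL1, TEAD1, MOB1A and NF2 held it, with a median log2 fold change of 0.01 against -0.05 for the other 25. These 5 also had longer 3′ UTRs, with a median of 4064 bases against 2269. AMOT shares the 7-mer with AMOTL1 and did not pass, though its log2 fold change of 0.01 has a wide SE of 0.26. Since both 7-mers were picked on these fold changes, these counts are a description, and the part of the 7-mers in the changes of LATS1, FRMD6 and AMOTL1 was not tested.

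Another 94 genes of the pathway were described in 7 lists written from general knowledge of the pathway, with earlier results of these data known. Of these 72 passed the filter on low counts, 2 were higher and 5 lower, and the median log2 fold change was -0.05 beside 0.01 for all tested genes. At 7 of 72, the share that passed is near the 9.08% of all genes. Of 16 further genes of a published YAP and TAZ target signature 11 were tested, with 0 higher, 2 lower and a median of -0.17. DESeq2 called 4 of them and limma-voom 2, where the shares of all genes were 12.1% and 8.56%, and 4.66% of all genes were lower by edgeR. The DESeq2 calls were not all of lower genes. They included MYOF, with an edgeR log2 fold change of 0.37 (SE 0.12) and adjusted p of 0.0525. Without overlap between groups 2 of the list were higher and 4 lower, beside 14.1% and 13.9% of all tested genes. FJX1, a secreted homologue of the fly kinase Four-jointed, was at 23.0, 21.7 and 20.7 CPM in shControl and at 16.4, 14 and 15.6 CPM in shTRIM21. It did not overlap and had a log2 fold change of -0.51 (SE 0.12) and an edgeR adjusted p of 0.0144. DOCK5, an exchange factor for Rac, was at 126, 113 and 104 CPM in shControl and at 94.3, 93.0 and 92.3 CPM in shTRIM21, with no overlap, a log2 fold change of -0.30 (SE 0.07) and an adjusted p of 0.0187. Both lost the call without shControl replicate 1 or shTRIM21 replicate 2, at adjusted p of 0.0716 and 0.0809 for FJX1 and 0.137 and 0.0749 for DOCK5, and DOCK5 also without shTRIM21 replicate 3, at 0.0875.

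FBXW11, the substrate receptor β-TrCP2 that marks phosphorylated YAP and TAZ for destruction, was the only call among 13 ubiquitin and tankyrase regulators. It was at 112, 104 and 122 CPM in shControl and at 83.3, 91.9 and 87.5 CPM in shTRIM21. The groups did not overlap, and it changed by -0.37 (SE 0.07) on the log2 scale, with an edgeR adjusted p of 0.00435. Its 3′ UTR holds 1 AGTGGAA. Among the other genes called lower in the wider lists, LPP holds 2 and YWHAG 1, while FJX1 and DOCK5 hold 0. Of the genes called higher, YWHAB holds 1 and TRIP6 holds 0. The part of this sequence in their changes was not tested.

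Among the zyxin family and the vestigial-like genes only 3 were tested. TRIP6, a zyxin relative that binds LATS, was at 32.7, 31.3 and 24.8 CPM in shControl and at 49.4, 37.0 and 39.3 CPM in shTRIM21. All shTRIM21 libraries were higher, with a log2 fold change of 0.50 (SE 0.12) and an edgeR adjusted p of 0.0134, which became 0.0924 without shTRIM21 replicate 1. LPP, another zyxin relative, was at 228, 226 and 201 CPM in shControl and at 176, 198 and 187 CPM in shTRIM21, without overlap, with a log2 fold change of -0.22 (SE 0.07) and an adjusted p of 0.0466, a call that held in 8 of 14 alternatives. ZYX itself was listed at 0 in all libraries, as are some genes that most cell lines transcribe, so no absence is read from it.

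The 14-3-3 proteins hold phosphorylated YAP in the cytoplasm, and 2 of the 7 passed in opposite directions, beside 9.08% of all genes. YWHAG (14-3-3 gamma) was at 434, 419 and 445 CPM in shControl and at 324, 346 and 360 CPM in shTRIM21, a log2 fold change of -0.33 (SE 0.06) with an edgeR adjusted p of 0.00210. YWHAB (14-3-3 beta) was at 364, 377 and 402 CPM in shControl and at 425, 448 and 467 CPM in shTRIM21, a log2 fold change of 0.23 (SE 0.06) with an adjusted p of 0.0280. Neither overlapped between groups, and the YWHAB call held in 10 of 14 alternatives. DESeq2 called 4 of the 7 and limma-voom 3, beside 12.1% and 8.56% of all genes. In 5 of the 7 the groups did not overlap, beside 28.1% of all tested genes. Of these 5, 2 were higher and 3 lower, beside 14.1% and 13.9% of all tested genes. The list is small, and its median was -0.01.

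The remaining lists held no call. They were 12 tested polarity and junction genes (median -0.17), 9 MAP4K and RASSF genes (median -0.05) and 17 genes of the STRIPAK phosphatase complex, which removes phosphate from STK3 and STK4 (median -0.05). At an unadjusted edgeR p under 0.05 there were 2, 0 and 2 genes, beside 3188 of all 14002 tested genes. DESeq2 and limma-voom called 0 in each list.

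**Figure D4:**
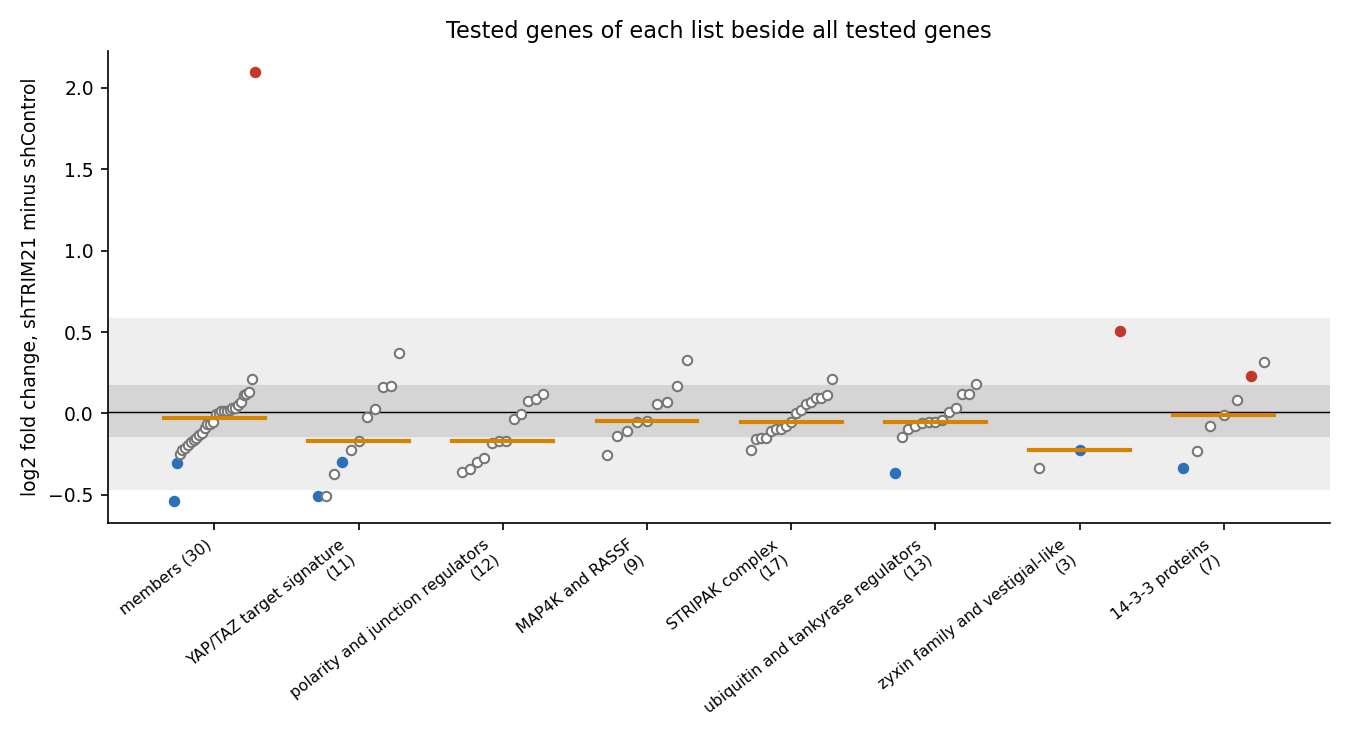
Log2 fold change, shTRIM21 minus shControl, of each tested gene of the Hippo set and of the 7 wider lists, with the number tested in brackets; filled points passed an adjusted p of 0.05 (red higher, blue lower). The orange bar is the list median, the black line the median of all 14002 tested genes, and the grey bands hold the middle of all genes from the 5th to the 95th percentile (-0.47 to 0.58) and between the quartiles (-0.14 to 0.17).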

How the data were processed

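For each library the authors deposited a table of raw counts by gene symbol, whole and not normalized. The submitters' processing notes list the hg38 build, TopHat2 2.1.1, limma 3.52.2 and edgeR 3.38.1. For the counting tool, the annotation and the strand setting, nothing is given in the sources used here. All 14002 genes that passed edgeR's default filter on low counts (edgeR 4.0.16, R 4.3.3) were fitted with TMM scaling and the quasi-likelihood test, shTRIM21 against shControl with no other term. The Benjamini-Hochberg adjustment ran over all of them, with a threshold of 0.05. Each SE was obtained as the absolute log2 fold change over the root of the F statistic. Levels are TMM-scaled CPM, computed here.

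The test was tried on 5 simulated sets of 14002 genes, with 200 changed in each, drawn from genes with a mean of 1 CPM or more. The spread between simulated libraries followed a trend over expression level, so genes of like level had the same spread. Fewer genes changed than the 1272 called in the data. Recovery was 27.6% for a true fold of 1.25, 64.4% for 1.5, 85.2% for 2 and 96.0% for 3, and false calls made up 4.48%. These rates hold for the simulated sets only. Exon lengths, positions and 3′ UTRs come from GENCODE 29, and promoters from RefSeq. The 31 genes, the lists and both 7-mers were chosen with earlier results of these data known. The rule named TRIM21, all 31 genes and, from each wider list, up to 4 genes past the threshold whose higher group had a mean of 5 CPM or more, and any that passed in the other direction. MYOF was named outside this rule, since DESeq2 called it. Alternatives covered RLE and upper-quartile scaling, no filter, DESeq2 1.42.0, voom (limma 3.58.1), removal of the 20 most abundant genes, removal of each library in turn, replicate 3 of both groups left out and the replicate number as a block.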

Additional observations from a re-analysis of the deposited data

How the results depend on the processing

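AMOTL1, LATS1 and FRMD6 passed the threshold in all 14 alternatives, with log2 fold changes of 1.87 to 2.24, -0.60 to -0.49 and -0.32 to -0.28. The number of the 31 genes that passed was 3, and it was 5 with DESeq2, 5 without replicate 3 of both groups and 3 to 8 with 1 library left out. The wider lists gave 7, and 11 without the filter, 11 with DESeq2, 11 without replicate 3 of both groups and 3 to 12 with 1 library left out. All genes gave 1272, or 9.08% of those tested, and 602 to 1737 (4.22 to 12.2%) with 1 library left out. Of all tested genes 8.47% passed without the filter and 10.3% without replicate 3 of both groups. With DESeq2 and with the replicate block the share was 12.1% each. Upper-quartile scaling moved the split from 620 higher and 652 lower to 720 and 618. The TRIM21 log2 fold change was -0.82 to -0.56 with 1 library left out, and -0.45 without replicate 3 of both groups. The core of the TEAD motif, GGAATG, was in promoters of 8 of the 26 matched genes, or 30.8%, beside 16.7% of all genes. The labels do not say that the replicate numbers mark a shared batch, so the block was kept as an alternative. Deviations of same-numbered libraries correlated at 0.096, -0.012 and 0.091. With the replicate number as a block 5 members, 11 genes of the wider lists and 1699 genes passed, YAP1 at an adjusted p of 0.0442 and NF2 at 0.0426 among them, while numbers 1 and 3 had their highest correlation within the number and 2 had it across. YAP1 also passed with DESeq2 and without the 20 most abundant genes, and NF2 with DESeq2 and without shControl replicate 3. Each passed in 3 of the 14 alternatives. With 1 library left out the edgeR adjusted p reached 0.253 for YAP1 and 0.262 for NF2. Genes at the level of AMOTL1 rest on 32 to 218 counts per library, and ANKRD1 could not be tested at this depth.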
